A study of Sus scrofa with 9 samples.

Results

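Sirtuins and the genes that recycle NAD were followed as a set of 10: the NAD salvage genes NAMPT and NMNAT1, the NAD-consuming ectoenzyme gene CD38, and the 7 sirtuin genes SIRT1 to SIRT7. Their symbols were looked up in the deposited gene tables, and all 10 were found among the 18933 genes of the table of Obese- and Lean-MSCs and among the 18992 genes of the table of treated and untreated Obese-MSCs. The data were hMeDIP-seq libraries, in which an antibody pulls down DNA fragments bearing 5-hydroxymethylcytosine (5hmC) for sequencing, from mesenchymal stem/stromal cells (MSCs) of pig subcutaneous abdominal fat. Lean-MSCs came from female domestic pigs on standard chow and Obese-MSCs from pigs given a high-fat/high-fructose diet for 16 weeks, starting at 3 months of age. A further set of Obese-MSC cultures received vitamin-C, a cofactor of the TET enzymes that form 5hmC, at 50 µg/mL for 48 h. Each of the 3 groups had 3 libraries, numbered in the labels as Lean replicates 7 to 9, untreated Obese replicates 1 to 3 and treated Obese replicates 4 to 6. All cells were expanded over a few passages before the assay, and the treated and untreated Obese-MSCs were grown for a further passage after the third. The study's methods give a low level of vitamin-C in the growth medium itself, so the untreated cells were not free of it. Whether a treated culture and an untreated one derive from 1 pig is stated neither in the labels nor in the study's methods.

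NAD is the coenzyme that sirtuins, a family of protein deacylases, split to nicotinamide each time they remove an acyl group. NAMPT catalyses the rate-limiting step that returns nicotinamide to nicotinamide mononucleotide, and NMNAT enzymes complete NAD from it. CD38 breaks NAD down at the cell surface and in organelles. In adipose tissue, secreted NAMPT is known as visfatin, and SIRT1 is known for restraining fat storage and for its ties to ageing and senescence.

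The value given for each gene is the normalized count of reads over all of its exons. It is a level of 5hmC, not of mRNA, and it was not corrected for exon length, so levels were compared between groups for the same gene and never between genes. Totals ran from 494566 to 522269 normalized counts in the table of Obese- and Lean-MSCs and from 547242 to 593846 in the other. In 6 of the 12 columns, low values lay near steps of 0.926 to 1.07 normalized counts, taken to stand for 1 read. At least 95% of values under 25 fell within 0.15 of a step there. As few as 47.6% did in the others, where a step was less clear. In the 6 columns 1 normalized count is thus worth about 1 read, but whole reads could not be recovered throughout. The untreated Obese libraries stand in both tables, where the same library had values 1.10 to 1.15 times as high in the second for these 10 genes. No library stood apart: mean correlations across genes on the log2 scale were 0.897 to 0.921 with libraries of the same group and 0.906 to 0.924 with those of the other. A gene was called high or low by the criteria of the study, which ask for an unadjusted p-value of 0.05 or less in a two-sided test with equal variances, and for group means whose ratio reaches 1.4 or falls to 0.7. limma was fitted to log2(normalized count + 1) after the 20% of genes with the lowest mean had been set aside, and its p-values were adjusted by Benjamini-Hochberg over all genes tested. The exact permutation test given for single genes is two-sided over 20 arrangements and cannot go below p = 0.1.

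Exonic 5hmC could not serve to check the labelled cell type. The MSC surface marker genes NT5E, THY1 and ENG carried the mark, but so did CD34 and PTPRC, which MSCs do not express, while CD14, a gene of monocytes and macrophages, was at 0 throughout the Lean group against 0.650, 0.924 and 4.49 normalized counts in Obese replicates 1, 2 and 3. At such values of CD14 a few reads separate the libraries. The macrophage genes CD163 and CD68 had means of 7.75 and 79.7 in Obese- and 9.79 and 74.5 in Lean-MSCs. PTPRC had means of 46.9 and 59.3, and the groups overlapped for these 3 genes. None of the 14 marker genes examined, those of endothelial cells, adipocytes and macrophages included, met the criteria in either comparison. CD14 and ENG were higher in every Obese than in every Lean library, ENG with means of 57.3 and 40.4. Over all genes, 11.8% had groups that did not overlap there. With vitamin-C, the endothelial gene CDH5 was lower in every treated than in every untreated library, with means of 13.8 and 17.2. Groups did not overlap for 5.91% of all genes in that comparison. The summed level of NT5E, THY1 and ENG was 94.8 to 123 normalized counts in the Obese and 80.1 to 88.4 in the Lean libraries, whereas the 11 markers of other cell types summed to 433 to 485 and to 392 to 478. In the other table the sums of NT5E, THY1 and ENG were 86.5 to 125 in the treated and 104 to 139 in the untreated libraries, and those of the 11 other markers 422 to 523 and 483 to 539. The part of these differences in the results below was not tested.

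The first comparison asked whether the diet and the obesity it produced were accompanied by other 5hmC levels in Obese- versus Lean-MSCs. Of the 10 genes, NAMPT alone met the criteria, with a higher level in Obese-MSCs. None met the criteria as low. NAMPT was chosen with earlier results of these same libraries known, so its call here is not independent evidence of its direction. Over the whole table, the criteria were met by 4.5% of genes in either direction, 2.07% as high (391) and 2.43% as low (461). The paper reports more genes in each direction under the same thresholds and for a table of the same size. The calls given here are therefore not the study's own calls.

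NAMPT lies on chromosome 9 from 106119896 to 106162126 (Sscrofa11.1). Its level was 35.8, 38.0 and 29.6 normalized counts in Obese replicates 1, 2 and 3, and 22.6, 22.8 and 18.5 in Lean replicates 7, 8 and 9. Every Obese library lay above every Lean library, as in 5.7% of all genes; the reverse held in 6.06%, so that 11.8% had groups that did not overlap. The means were 34.5 ± 4.33 and 21.3 ± 2.43 (SD, n = 3 each), a ratio of 1.62 and a log2 ratio of 0.69 (exact permutation test, p = 0.1). Dropping any 1 of the 6 libraries moved the log2 ratio no further than 0.60 to 0.79, and NAMPT met the criteria each time. limma gave a difference of 0.67 on the log2(normalized count + 1) scale, with a 95% interval from 0.11 to 1.23, and an adjusted p of 0.694 that lay between 0.635 and 0.961 over the alternatives.

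**Figure D1:**
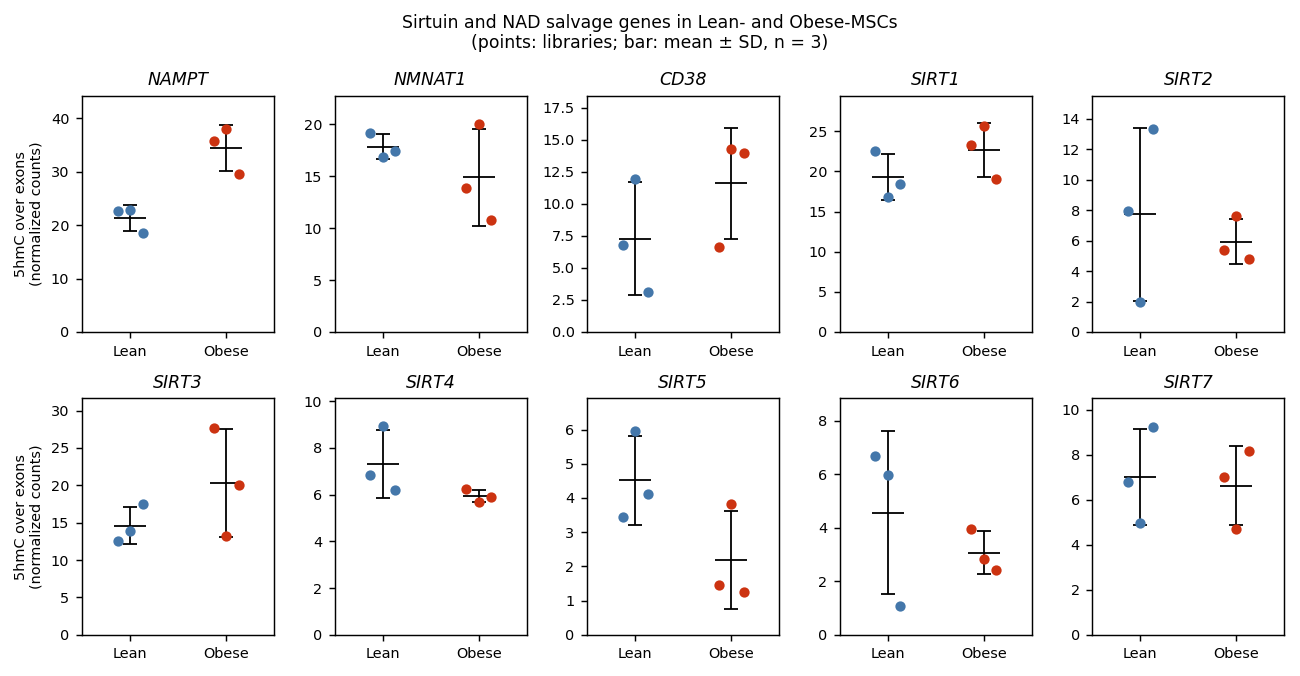
5hmC over exons, in normalized counts (vertical axis, 1 scale per gene), of the 10 genes in Lean-MSCs (blue) and untreated Obese-MSCs (red). Points are libraries in the order of their numbers and black bars are the mean ± SD of 3 libraries. NAMPT is the one panel in which the groups do not overlap, with Obese libraries between 29.6 and 38.0 and Lean libraries between 18.5 and 22.8.

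The other salvage gene did not move with NAMPT. NMNAT1, which encodes the nuclear enzyme that joins nicotinamide mononucleotide with ATP to form NAD (chromosome 6 from 70271296 to 70307403), was at 13.9, 19.996 and 10.8 normalized counts in the Obese and 19.2, 16.9 and 17.5 in the Lean libraries. Obese replicate 2 was above all Lean libraries and the other Obese libraries were below them. The log2 ratio was -0.26 (exact permutation test, p = 0.4), and the limma interval of the difference ran from -0.94 to 0.37. Without Obese replicate 2 the log2 ratio was -0.53 and NMNAT1 met the criteria as low. The call came only with that library left out, the one that made the groups overlap. RefSeq places part of LZIC within the span of NMNAT1, as it does with HERC4 in SIRT1 and LOC110262058 in CD38. Where exons overlap, reads cannot be told apart between the genes.

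CD38, whose product consumes NAD and makes cyclic ADP-ribose, lies on chromosome 8 from 11083682 to 11130783. It had 6.62, 14.3 and 13.98 normalized counts in the Obese and 6.82, 11.9 and 3.12 in the Lean libraries. Obese replicates 2 and 3 were above every Lean library, and Obese replicate 1 was among them. The log2 ratio was 0.67 and ran from 0.31 to 1.23 with 1 library left out at a time. The libraries overlapped (exact permutation test, p = 0.3) and the SDs of 4.34 and 4.42 normalized counts were as large as the difference of the means, 11.6 and 7.29. The limma interval of the difference ran from -0.24 to 1.62, and the adjusted p was 0.825.

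SIRT1 encodes the nuclear deacetylase of histones and PGC-1alpha and lies on chromosome 14 from 71091167 to 71126351. Its level was 23.3, 25.6 and 19.0 normalized counts in the Obese and 22.5, 16.9 and 18.5 in the Lean libraries. Obese replicate 3 fell between Lean replicates 7 and 9, so the groups overlapped. The means of 22.7 ± 3.36 and 19.3 ± 2.89 (SD, n = 3 each) differed by a log2 ratio of 0.23 (exact permutation test, p = 0.2), with a limma interval from -0.38 to 0.82.

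SIRT6 and SIRT7 encode the other predominantly nuclear sirtuins, SIRT6 a chromatin-bound deacylase tied to DNA repair and telomeres and SIRT7 a nucleolar enzyme tied to ribosomal RNA transcription. SIRT6 lies on chromosome 2 from 74568539 to 74577774. It was at 3.96, 2.83 and 2.42 normalized counts in the Obese and 6.67, 5.96 and 1.06 in the Lean libraries. Lean replicate 9 was the lowest of the 6 and the other Lean libraries were the highest. Without it, SIRT6 met the criteria as low with a log2 ratio of -1.04, against -0.57 with it. These levels are low, so a few reads separate the libraries, and the call came only with Lean replicate 9 left out. SIRT7 lies on chromosome 12 from 1078155 to 1084112. Its level was 7.02, 4.70 and 8.14 normalized counts in the Obese and 6.80, 4.96 and 9.22 in the Lean libraries. The groups spanned almost the same range, with a log2 ratio of -0.079 and a limma interval from -0.93 to 0.81.

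SIRT3, SIRT4 and SIRT5 encode the mitochondrial sirtuins, of which SIRT3 is the main deacetylase of the matrix, SIRT4 is known for its action on glutamate dehydrogenase and SIRT5 removes succinyl and malonyl groups. SIRT3 lies on chromosome 2 from 38465 to 55074. Its level was 27.7, 13.2 and 20.04 normalized counts in the Obese and 12.5, 13.9 and 17.4 in the Lean libraries. Obese replicates 1 and 3 were above all Lean libraries, and replicate 2 lay within their range. The log2 ratio was 0.47 (exact permutation test, p = 0.3), with a limma interval of the difference from -0.28 to 1.08. SIRT4 lies on chromosome 14 from 40290288 to 40303887. It was at 6.23, 5.68 and 5.90 normalized counts in the Obese and 6.82, 8.94 and 6.18 in the Lean libraries. The groups touched, since Lean replicate 9 lay just below Obese replicate 1, and the log2 ratio was -0.30 (exact permutation test, p = 0.2).

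SIRT5 (chromosome 7 from 9951024 to 9968004) was among the genes set aside before limma for a low mean. It was at 1.47, 3.83 and 1.25 normalized counts in the Obese and 3.46, 5.96 and 4.12 in the Lean libraries. Obese replicate 2 lay between Lean replicates 7 and 9, and the other Obese libraries were below every Lean library (exact permutation test, p = 0.2). Without Obese replicate 2, SIRT5 met the criteria as low. The call came only with that library left out, the one that made the groups overlap. At such values a difference of a few reads separates the libraries.

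SIRT2, the gene of the mainly cytoplasmic tubulin deacetylase, lies on chromosome 6 from 47682427 to 47703408. It had 5.37, 7.62 and 4.80 normalized counts in the Obese and 7.91, 1.97 and 13.3 in the Lean libraries. The Lean libraries enclosed all Obese libraries, with a coefficient of variation of 73.3% against 25.1%. The log2 ratio of -0.38 turned to 0.26 without Lean replicate 9.

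By limma, 0 of the 9 genes that were tested passed an adjusted p of 0.05, and 0 of 15146 genes over the whole table did. NAMPT was the 1 of the 9 with an unadjusted limma p of 0.05 or less, a threshold met by 6.81% of all genes tested (1031). The means were higher in Obese-MSCs for 4 of the 10 genes (NAMPT, CD38, SIRT1 and SIRT3) and lower for 6. The median limma difference of the 9 was -0.062 on the log2(normalized count + 1) scale, beside -0.00043 over all genes tested. For the sirtuins alone, 0 of 7 met the criteria, and the 6 that limma tested ran from -0.25 to 0.40.

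**Figure D2:**
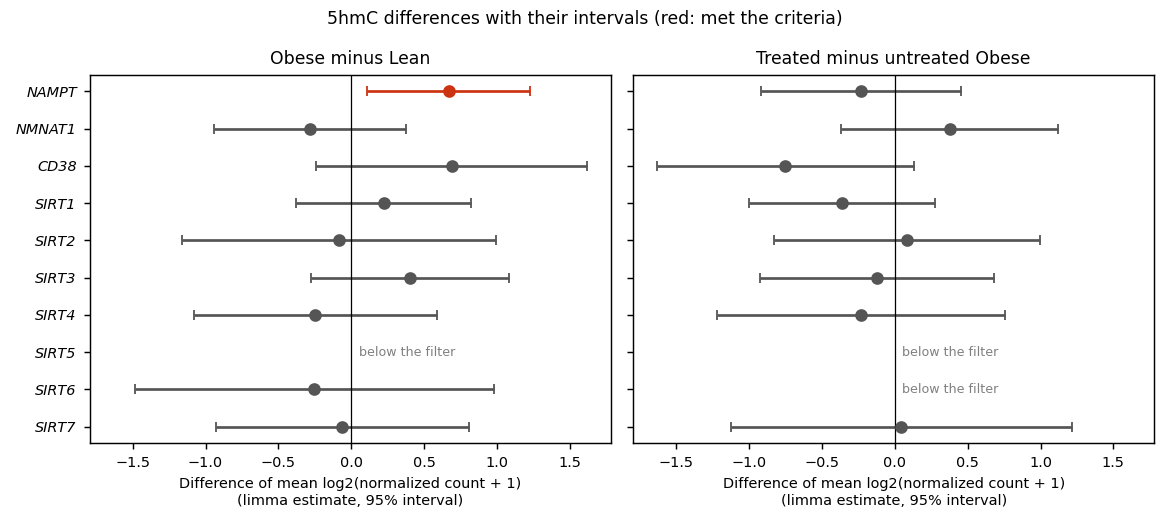
Differences of mean log2(normalized count + 1) estimated by limma (horizontal axis) with 95% intervals, for Obese minus Lean (left) and treated minus untreated Obese (right). Red marks a gene that met the criteria. The interval of NAMPT on the left, from 0.11 to 1.23, is the one interval in either panel that does not reach 0, and genes marked as below the filter were not tested by limma.

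The second comparison asked whether added vitamin-C altered 5hmC in Obese-MSCs. None of the 10 genes met the criteria when Obese-MSCs with and without added vitamin-C were compared, and the groups overlapped for each of the 10. Among all 18992 genes, 364 met the criteria (1.92%, of which 1.11% as high and 0.806% as low), and 5.91% had groups that did not overlap (3.24% higher and 2.67% lower with vitamin-C). By limma, 0 of 15194 genes and 0 of the 8 of this set that were tested passed an adjusted p of 0.05, with 148 genes (0.974%) and 0 of the 8 at an unadjusted p of 0.05 or less. The untreated libraries are those of the first comparison, so the comparisons share them and their differences are not independent.

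NAMPT had 38.2, 45.5 and 19.4 normalized counts in treated replicates 4, 5 and 6 and 39.8, 42.9 and 32.7 in untreated replicates 1, 2 and 3. Treated replicate 6 was the lowest of the 6 libraries and treated replicate 5 the highest. The means were 34.4 ± 13.5 and 38.4 ± 5.23 (SD, n = 3 each), a log2 ratio of -0.16 (exact permutation test, p = 0.8) that became 0.12 without treated replicate 6. The limma interval of the difference ran from -0.92 to 0.46, which leaves room for a decrease as large as the difference seen between Obese- and Lean-MSCs as well as for an increase.

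NMNAT1 had 24.1, 27.9 and 14.1 normalized counts in the treated and 15.5, 22.4 and 12.005 in the untreated libraries. Treated replicates 4 and 5 were above all untreated libraries, and treated replicate 6 was below untreated replicate 1. The log2 ratio was 0.41 (exact permutation test, p = 0.3), and the limma interval ran from -0.37 to 1.12.

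CD38 had the log2 ratio farthest from 0 of the 10 genes. It had 10.1, 4.56 and 7.15 normalized counts in the treated and 7.57, 16.0 and 15.3 in the untreated libraries. Untreated replicates 2 and 3 were above every treated library, and untreated replicate 1 lay between treated replicates 6 and 4. The log2 ratio was -0.84 (exact permutation test, p = 0.2), and limma gave a difference of -0.75 with an interval from -1.63 to 0.13. Without untreated replicate 1, CD38 met the criteria as low with a log2 ratio of -1.11. That library is the one that made the groups overlap, and the call came only with it left out.

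**Figure D3:**
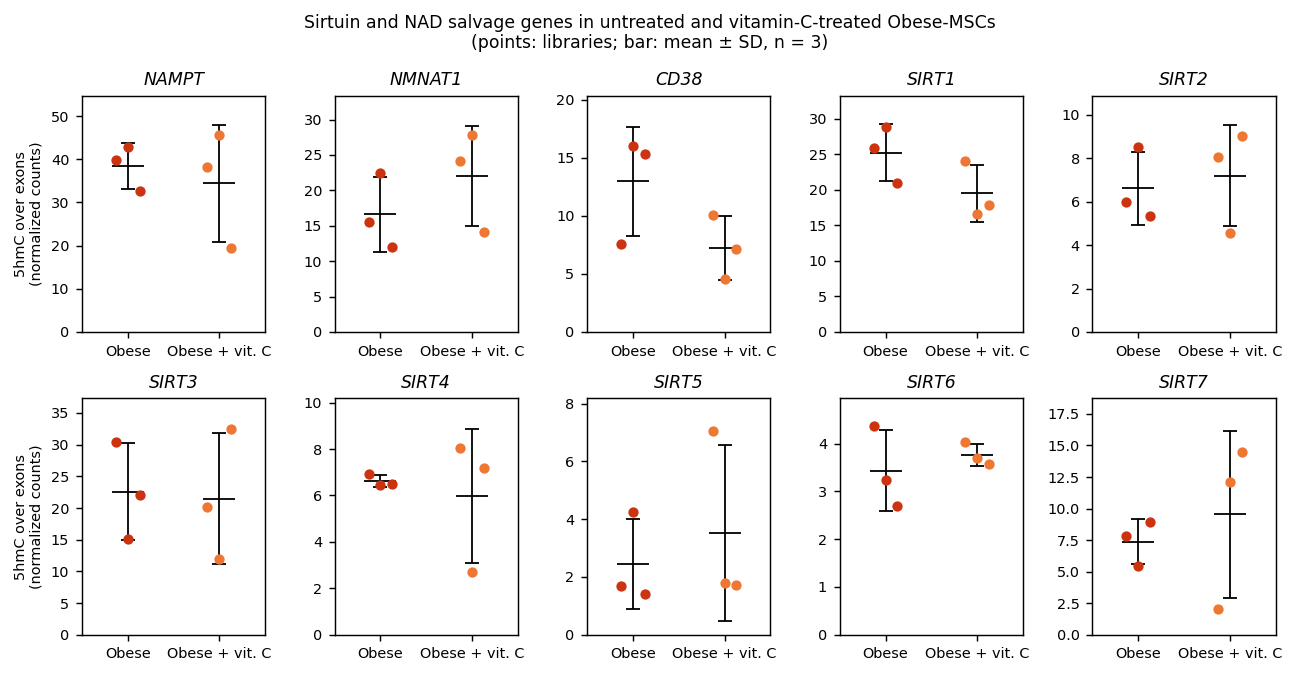
5hmC over exons, in normalized counts (vertical axis, 1 scale per gene), of the 10 genes in untreated Obese-MSCs (red) and Obese-MSCs treated with vitamin-C (orange). Points are libraries in the order of their numbers and black bars are the mean ± SD of 3 libraries. The groups overlap in every panel, and for NAMPT the treated libraries spread from 19.4 to 45.5, wider than the untreated ones from 32.7 to 42.9.

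SIRT1 had 24.1, 16.6 and 17.9 normalized counts in the treated and 25.9, 28.9 and 21.0 in the untreated libraries. Treated replicate 4 lay within the untreated range and the other treated libraries were below it. The means of 19.5 ± 4.04 and 25.3 ± 4.00 (SD, n = 3 each) gave a log2 ratio of -0.37 (exact permutation test, p = 0.2), and the limma interval was -1.001 to 0.28. SIRT6 had 4.02, 3.69 and 3.56 normalized counts in the treated and 4.36, 3.23 and 2.70 in the untreated libraries. All treated values of SIRT6 lay within the untreated range.

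SIRT7 had 2.02, 12.1 and 14.5 normalized counts in the treated and 7.79, 5.42 and 8.93 in the untreated libraries. Treated replicate 4 was below and the other treated libraries were above every untreated library, so that the log2 ratio of 0.37 rose to 0.85 and met the criteria as high without that library. The log2 ratio was -0.064 without treated replicate 6. A call came only with treated replicate 4 left out, the library that made the groups overlap. The treated libraries had a coefficient of variation of 69.4%, against 24.3% in the untreated ones.

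The mitochondrial sirtuin genes likewise overlapped. SIRT3 had 20.1, 11.9 and 32.5 normalized counts in the treated and 30.5, 15.1 and 22.1 in the untreated libraries, with a log2 ratio of -0.070. SIRT4 had 8.04, 2.69 and 7.20 in the treated against 6.92, 6.45 and 6.51 in the untreated libraries, with treated replicate 5 below and the other treated libraries above all untreated ones. Its means of 5.98 and 6.62 gave a log2 ratio of -0.15 (exact permutation test, p = 1). SIRT5 had 7.03, 1.80 and 1.71 against 1.674, 4.24 and 1.43, so a single treated library accounted for its higher mean. For the cytoplasmic SIRT2, the treated libraries at 8.05, 4.56 and 9.01 and the untreated ones at 6.01, 8.53 and 5.33 were interleaved, with a log2 ratio of 0.12.

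The genes sit on 7 chromosomes, with pairs on chromosome 2 (SIRT3 and SIRT6), chromosome 6 (SIRT2 and NMNAT1) and chromosome 14 (SIRT1 and SIRT4), and their RefSeq spans run from 5958 bases for SIRT7 to 47102 for CD38. SIRT2, SIRT3, SIRT6 and SIRT7 have a protein-coding neighbour within 1000 bases on both sides, the nearest being PSMD13 at 34 bases from SIRT3 and MAFG at 74 bases from SIRT7. For NAMPT the nearest neighbours are 134724 and 378798 bases away. Of 23 genes that overlap or flank the set, 2 met the criteria in Obese- versus Lean-MSCs, beside 4.5% of all genes. They were GFOD1 beside SIRT5 and BST1 beside CD38, both high. In treated versus untreated Obese-MSCs, 1 did, CCDC71L beyond NAMPT, with a log2 ratio of -0.84, beside 1.92% of all genes. These neighbours were looked up after the values had been seen.

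BST1 (CD157) is the paralogue of CD38, encodes another ectoenzyme that uses NAD, and starts the account of the wider pathway. It ends 40060 bases before CD38. BST1 had 43.8, 30.3 and 37.7 normalized counts in the Obese and 27.1, 21.8 and 26.7 in the Lean libraries. Every Obese library was above every Lean library, and the means of 37.3 ± 6.80 and 25.2 ± 2.92 (SD, n = 3 each) gave a log2 ratio of 0.56 (exact permutation test, p = 0.1). The limma interval of the difference ran from -0.020 to 1.09, and the limma adjusted p was 0.744. It was the 1 gene of 36 on a list of other NAD genes to meet the criteria in Obese- versus Lean-MSCs, and 0 met them as low. Over all genes 4.5% met them, so the list was not called more often than the whole table. Of the 6 libraries, leaving out Obese replicate 2 alone kept the call of BST1. With vitamin-C it had 48.3, 18.3 and 32.2 normalized counts against 48.5, 34.4 and 41.5 in the untreated libraries, and the groups overlapped.

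In Obese- versus Lean-MSCs, 2 of the 36 genes on the pathway list, BST1 included, were higher without overlap of the groups, and 1 was lower. Over all genes these shares were 5.7% and 6.06%. In the de novo route from tryptophan, 0 of 9 genes met the criteria, beside 4.5% of all genes. IDO2, which encodes an indoleamine dioxygenase of its first step, was at 18.7, 23.80 and 9.80 normalized counts in the Obese and 23.82, 25.8 and 27.7 in the Lean libraries, so that the groups did not overlap by the smallest of margins. NAPRT, the gene of the enzyme that starts NAD synthesis from nicotinic acid, was at 4.79, 2.83 and 2.44 in the Obese and 0.030, 1.99 and 1.03 in the Lean libraries, values too low for a fold change. The 6 other salvage genes (NMRK1, NMRK2, NNMT, NMNAT2, NMNAT3 and PNP) all had overlapping groups. The median limma difference over the 31 list genes tested was -0.041, and 0 passed after adjustment. An unadjusted limma p of 0.05 or less was met by 1 of the 31, beside 6.81% of all genes tested. That gene was not BST1, and its groups overlapped.

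In treated versus untreated Obese-MSCs, 0 of the 36 NAD genes met the criteria and the median limma difference over 31 was 0.061. Over all genes, 1.92% met the criteria and 5.91% had groups that did not overlap. NMNAT2, the gene of the cytoplasmic NMNAT enzyme best known in neurons, was the one of the 36 whose groups did not overlap. It is named because of that. It had 336, 316 and 302 normalized counts in the treated and 358, 371 and 352 in the untreated libraries. Its ratio of 0.882 was short of the criteria (exact permutation test, p = 0.1).

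A list of 30 genes for sirtuin substrates and partners was read in the same way, 29 of them in the table of Obese- and Lean-MSCs. The criteria were met by 4.5% of all genes in that table. SREBF1, the gene of the lipogenic transcription factor that SIRT1 deacetylates, was the one of the 29 that met them, as high. It had 16.3, 17.1 and 14.2 normalized counts in the Obese and 9.09, 9.93 and 10.3 in the Lean libraries. The groups did not overlap, the means were 15.9 ± 1.48 and 9.76 ± 0.608 (SD, n = 3 each), and the log2 ratio was 0.70 (exact permutation test, p = 0.1). Leaving out each of the 6 libraries kept the call, while the limma adjusted p was 0.742. With vitamin-C it ranged from 15.1 to 47.0 and overlapped the untreated libraries.

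On the same list, the urea cycle gene CPS1, a SIRT5 substrate, was lower in every Obese than in every Lean library without meeting the criteria. CPS1 had 2.80, 8.58 and 8.13 normalized counts against 11.3, 9.92 and 14.4. EP300, an acetyltransferase gene named because its groups were apart in both comparisons, had means of 46.4 in Obese- and 60.1 in Lean-MSCs, and of 63.6 with and 51.7 without added vitamin-C. The untreated libraries are the same in both. In Obese- versus Lean-MSCs, 1 of the 29 genes was higher and 3 were lower without overlap of the groups, beside 5.7% and 6.06% of all genes. With vitamin-C, 1 of the 30 was higher and 0 were lower, beside 3.24% and 2.67%. In treated versus untreated Obese-MSCs 0 of the 30 genes met the criteria, beside 1.92% of all genes.

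**Figure D4:**
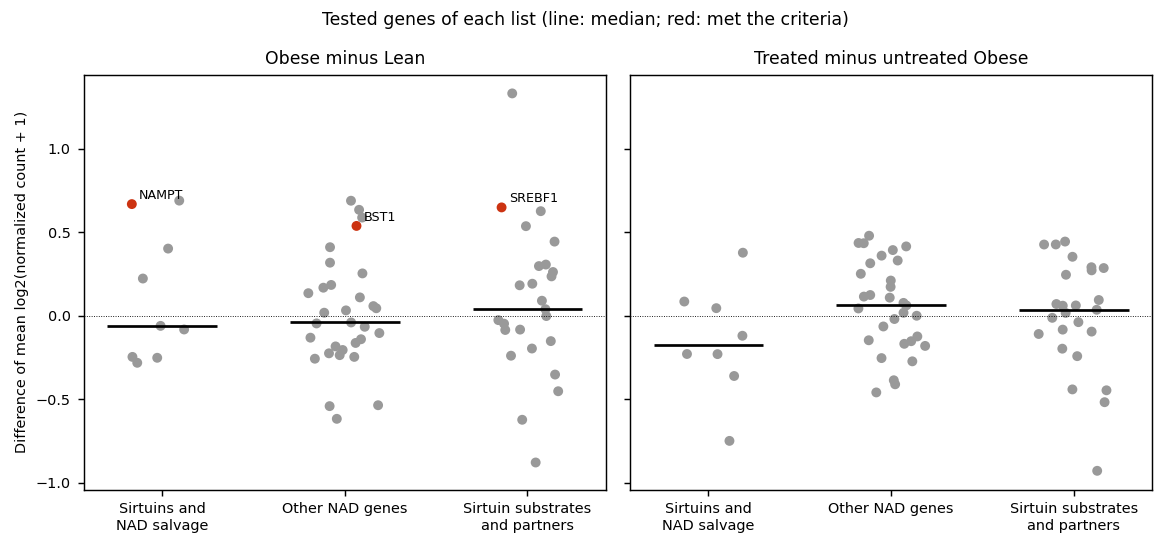
Differences of mean log2(normalized count + 1) estimated by limma (vertical axis) for the tested genes of the 3 lists, as Obese minus Lean (left) and treated minus untreated Obese (right). Each point is a gene, black lines are medians and red marks the genes that met the criteria, which are NAMPT, BST1 and SREBF1 on the left and none on the right.

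The genes whose 5hmC levels followed NAMPT most closely over the 6 libraries of Obese- and Lean-MSCs were LOC110260888, RBM15B and PGAM2. Their mean absolute differences from NAMPT were 0.0410, 0.0616 and 0.0779 in centred log2(normalized count + 1), the smallest among the 9467 genes in the upper 50% by mean. All 3 met the criteria as high. They were picked for likeness to NAMPT in the libraries in which it was called, so these calls follow from the choice. For CD38 in the 6 libraries of treated and untreated Obese-MSCs, the closest genes were LOC100518644, CP and RNPC3 at 0.19, 0.19 and 0.20. With 6 libraries and so many genes, matches of this closeness are a description of these libraries.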

How the data were processed

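Swine MSC hMeDIP-seq was analysed from 2 tables of normalized counts per gene, a signal that is fractional and never negative. To make them, the authors mapped read pairs to susScr 11.1 with Bowtie2 2.3.3.1, removed duplicates with Picard 1.67, counted reads over exons with HTSeq 0.9.1 and processed the deposited signal with edgeR 3.28.1. The annotation release and strand setting are not given in the sources used here, and depth in reads is known only roughly, so no counting interval was computed. Groups came from the labels, and each comparison stayed within its table because the tables were normalized separately. In all, 645 values that were numerical residue near 0 were set to 0.

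The study's criteria were applied to all genes with Python 3.11.15 and scipy 1.17.1, and log2(value + 1) entered limma 3.58.1 (R 4.3.3), in which the prior variance followed mean level and p-values took the Benjamini-Hochberg adjustment; both were tested on simulated data. Coordinates are from RefSeq for Sscrofa11.1, matched by symbol for 10 of 10 genes. The genes and lists were chosen with earlier results of these data known. All 10 genes are named; of the lists, those that met the criteria, or whose groups did not overlap and whose log2 ratio was among the 3 highest or 3 lowest, the 3 genes nearest to NAMPT and to CD38, plus NMNAT2, EP300 and neighbours, which were chosen after their values were seen. One listed gene is not reported here. Nothing in the labels says that libraries of a group came from separate animals beyond their numbers, so p-values measure the spread between these libraries. Alternatives were other scalings, variance models, thresholds, filters and pseudocounts, and each library left out in turn.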

Additional observations from a re-analysis of the deposited data

How the results depend on the processing

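NAMPT met the criteria in Obese- versus Lean-MSCs under 13 of 14 alternatives and was lost at a p-value threshold of 0.01, which left 0 of the 10 genes and 0 of the 36 NAD genes. Dropping the ratio threshold, or keeping only genes with a mean over 3, could not have lost its call, so those passes are not evidence of stability. Leaving out 1 library at a time gave between 1 and 3 of the 10 genes in that comparison and between 0 and 1 with vitamin-C. For the NAD genes it gave between 0 and 2, and between 0 and 1 with vitamin-C. The shares of all genes given above, 4.5% and 1.92%, are for every library kept and cannot be set beside these counts. BST1 also failed with unequal variances (0 genes), and NMNAT2 passed with vitamin-C on the p-value alone (1 gene). limma passed 0 of the 10 genes under every alternative in both comparisons, with adjusted p-values from 0.635 in the first and from 0.9996 in the second. For SREBF1 and the other sirtuin substrates, leaving out libraries was chosen after seeing the data and gave between 0 and 2 genes with vitamin-C.

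Scaling and log-scale estimates kept the direction of each of the 10 genes in both comparisons. Adding a pseudocount to both group means could not have changed it. The reversals came from leaving out libraries. In Obese- versus Lean-MSCs the log2 ratio then ran from -0.84 to 0.26 for SIRT2 and from -0.28 to 0.17 for SIRT7. With vitamin-C it ran from -0.41 to 0.12 for NAMPT, from -0.072 to 0.36 for SIRT2, from -0.50 to 0.22 for SIRT3, from -0.42 to 0.20 for SIRT4, from -0.48 to 1.18 for SIRT5, from -0.014 to 0.34 for SIRT6 and from -0.064 to 0.85 for SIRT7. The cause of these reversals was not tested. No paired analysis was possible because neither the labels nor the study's methods say which treated and untreated cultures share a pig.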
